A study of Mus musculus with 12 samples.

Results

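Kidney RNA was compared between cisplatin-treated mice given pulsed focused ultrasound (pFUS) together with mesenchymal stem cells (MSCs) from umbilical cord (pFUS_UC, 4 samples) and cisplatin-treated mice given the cells without ultrasound (UC, 4 samples). These are 8 of the 12 samples of the series. The remaining 4 samples come from mice given cisplatin alone (AKI), and they served in the statistical fit to estimate the spread between samples. Their sample codes begin with KR and those of the other 8 with K and a number, and the reason for this is not given. AKI values set beside UC below cannot be told apart from a difference that goes with the codes. The members were chosen by group label, and every gene of the count table was considered. All groups carry the C57bl/6-wt label and all received cisplatin, so both groups compared share the drug and the cells, and the labels differ between them only in ultrasound. The species and donor of the cells, the cell dose, the ultrasound setting, the sex of the mice and the time of sampling are not given in the sources at hand. The labels do not state that each sample is a separate animal, so the p-values measure the spread between these samples, which may be technical.

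Cisplatin is a chemotherapy drug that damages DNA and is taken up by the proximal tubule, where injured cells switch on p53 targets such as Cdkn1a and secrete or display injury proteins such as Lcn2 and Havcr1. Mesenchymal stem cells are stromal cells that are thought to act mainly through what they secrete, and pulsed focused ultrasound delivers short bursts of sound that deform tissue with little heating. The study asked whether priming the injured kidney with ultrasound adds to the effect of the cells, and its title points to mitochondria and heat shock proteins. Tubule cells depend on mitochondria for ATP, and heat shock proteins are chaperones that refold damaged proteins and are switched on by HSF1 through short promoter sequences called heat shock elements.

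The libraries held 17.3 to 25.2 M (mega) counts, with a mean of 21.5 ± 2.74 M in pFUS_UC and 19.5 ± 1.34 M in UC (SD, n = 4 each). Levels below are CPM, counts scaled by TMM to 1 M counts per library. Each library is called a kidney below for short, though the labels do not state that each is a separate animal. Values of single kidneys are given in the order of replicates 1 to 4. Slc34a1, the phosphate transporter that marks proximal tubule, averaged 1020 FPKM in pFUS_UC and 933.7 FPKM in UC, so both groups carried the label's tissue. Transcripts of the mitochondrial genome took 12.3 ± 3.67% of the counts in pFUS_UC and 14.2 ± 5.17% in UC. This share ran from 7.38 to 15.3% in pFUS_UC and from 8.57 to 18.6% in UC, and the groups overlapped (2-sided exact permutation test, n = 4 each, p = 0.514, adjusted over 4 measures 0.686). In AKI it ran from 2.87 to 7.12%. Within protein-coding genes, gene length was correlated with each library's deviation from the mean level of all libraries (Spearman). This correlation was -0.244 to 0.0112 in pFUS_UC, -0.209 to -0.13 in UC and 0.157 to 0.377 in AKI. The ribosomal RNA gene Rn18s-rs5 took 1.08, 1.17, 0.788 and 1.05% of the counts in pFUS_UC, against 0.756, 0.599, 0.494 and 0.703% in UC. The groups did not overlap in this share, and the exact permutation p of 0.0286 is the smallest that 4 against 4 samples can give, with an adjusted value of 0.114. In CPM the groups did overlap for Rn18s-rs5, with UC kidney 1 at 8730 CPM and pFUS_UC kidney 3 at 8480 CPM. Its part in the results below was not tested. The first 3 principal components of the 8 libraries held 27.2, 22.5 and 14% of the variance. On the first component pFUS_UC kidney 4 stood at 22.8, and UC kidneys 1 and 2 stood at -26.8 and -23.9. On the second, pFUS_UC kidney 4 stood at -24.4 and UC kidney 3 at 28.6.

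No gene passed the threshold. Of 16947 genes tested, edgeR's quasi-likelihood test called 0 (0%) at an adjusted p under 0.05, and the smallest adjusted p was 0.351. At an unadjusted p under 0.05 there were 1342 genes, 7.92% of those tested, of which 675 (3.98%) were higher and 667 (3.94%) lower in pFUS_UC. The 4 values of pFUS_UC lay wholly above those of UC for 327 genes (1.93%) and wholly below for 334 (1.97%), or 661 genes (3.9%) in all. These shares over all tested genes are the background for the list counts below. DESeq2, run on the same counts, called 44 of 16592 genes (0.265%), 29 higher (0.175%) and 15 lower (0.0904%) in pFUS_UC. No filter on low counts gave 11 higher and 2 lower calls in edgeR.

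The same fit limits how large a change can be for most genes. The approximate 95% interval of the fold change lay within a 2-fold change in either direction for 12293 genes, 72.5% of those tested. Among the 11591 genes with at least 5 CPM in the higher group this held for 10569, or 91.2%. Each interval here and below is for a single gene. It is not adjusted for the number of genes tested or for picking genes by p. Leaving out UC kidney 4 gave 1299 higher genes at an unadjusted p under 0.05. Leaving out pFUS_UC kidney 4 gave 407 and leaving out UC kidney 1 gave 410. The numbers of lower genes under the same 3 omissions were 921, 388 and 342.

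**Figure D1:**
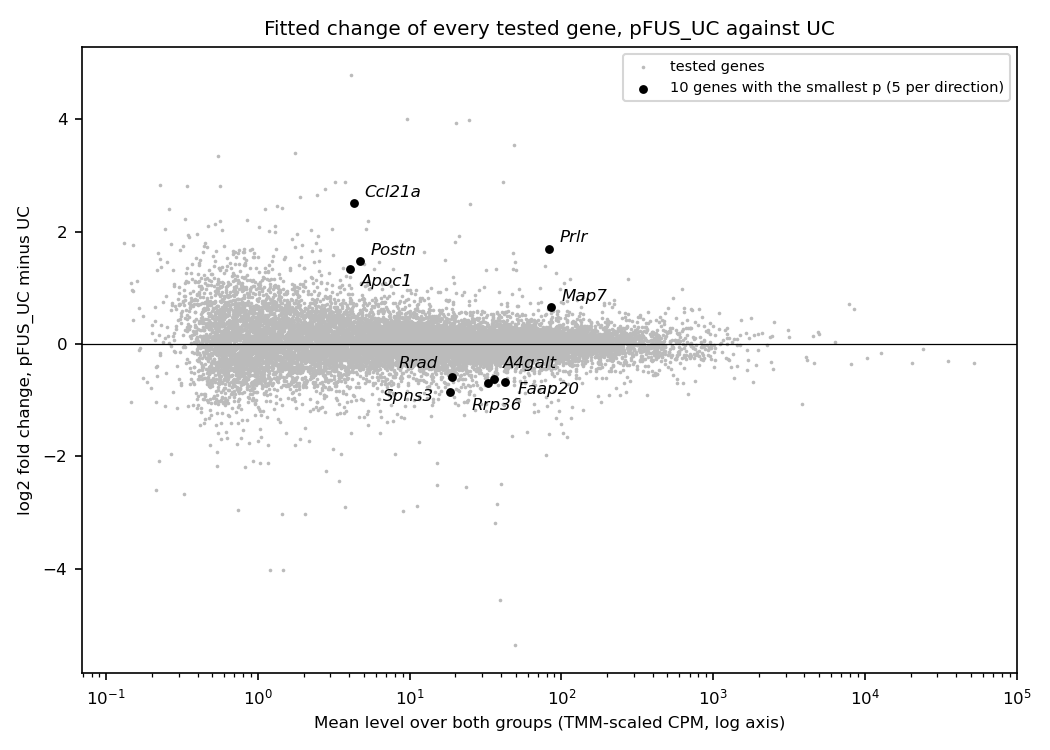
Fitted log2 fold change of pFUS_UC minus UC (y axis) against the mean level over both groups in TMM-scaled CPM (x axis, log scale) for the 16947 tested genes in grey. The 10 named genes in black are the 5 protein-coding genes per direction with the smallest p among genes whose higher group averaged 5 CPM or more, and none of them passed the adjusted threshold.

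The gene with the smallest p was Prlr (ENSMUSG00000005268, chromosome 15, 10177324 to 10349266, plus strand, GRCm39), the receptor for the pituitary hormone prolactin. It had 133, 103, 205 and 67.5 CPM in pFUS_UC kidneys, against 39.4, 44.6, 40.4 and 32.5 CPM in UC kidneys. The lowest pFUS_UC kidney lay above the highest UC kidney, and the pFUS_UC kidneys differed more among themselves. The log2 fold change was 1.70 with a 95% interval of 1.12 to 2.27 and an adjusted p of 0.351 by edgeR. DESeq2 gave an adjusted p of 4.41e-06, and edgeR gave 0.0162 without pFUS_UC kidney 4, the kidney with the lowest level in that group. AKI kidneys had 34.5 to 52.1 CPM, which holds 3 of the 4 UC values.

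The other 4 genes with the smallest p among those higher in pFUS_UC were Postn, Apoc1, Ccl21a and Map7. Postn, which encodes the matrix protein periostin made by fibroblasts (chromosome 3, 54268530 to 54298458), had 7.48, 5.13, 8.003 and 7.28 CPM in pFUS_UC, against 1.62, 2.21, 3.87 and 2.26 CPM in UC. Apoc1, a small apolipoprotein of circulating lipid particles, averaged 5.81 ± 1.14 CPM in pFUS_UC and 2.28 ± 0.666 CPM in UC. Neither gene overlapped between the groups, and the log2 fold changes were 1.47 (0.87 to 2.07) and 1.34 (0.78 to 1.90). Ccl21a, a chemokine that guides lymphocytes and dendritic cells through CCR7, had 4.93, 10.7, 4.84 and 8.86 CPM in pFUS_UC, against 0.623, 0.798, 0.749 and 2.89 CPM in UC. UC kidney 4 stood apart from the other UC kidneys, and the log2 fold change of Ccl21a was 2.50 (1.45 to 3.56) over all kidneys and 3.33 without UC kidney 4. Ccl21a has near-identical copies in the mouse genome, so its count is uncertain. Map7, a microtubule-binding protein of epithelial cells, averaged 105 ± 16.5 CPM in pFUS_UC and 66.9 ± 3.95 CPM in UC, a log2 fold change of 0.65 (0.37 to 0.93).

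Among genes lower in pFUS_UC, the smallest p values belonged to Rrp36, Rrad, Faap20, A4galt and Spns3. Rrp36, which takes part in ribosomal RNA processing (chromosome 17, 46977250 to 46985278, minus strand), had 23.5, 25.5, 28.8 and 22.7 CPM in pFUS_UC, against 39.7, 35.1, 50.5 and 37.7 CPM in UC. Rrad, a small GTPase-like protein, averaged 15.3 ± 1.99 CPM in pFUS_UC and 22.9 ± 2.81 CPM in UC. Faap20, a partner of the Fanconi anaemia complex that repairs DNA crosslinks, averaged 32.8 ± 5.18 CPM in pFUS_UC and 52.2 ± 10.1 CPM in UC. The groups did not overlap for any of these 3 genes, and their log2 fold changes lay between -0.70 and -0.58. A4galt makes the glycolipid globotriaosylceramide and averaged 28.4 ± 4.09 CPM in pFUS_UC and 43.6 ± 5.47 CPM in UC. Spns3, of the spinster transporter family, averaged 13.04 ± 2.16 CPM in pFUS_UC and 23.7 ± 1.99 CPM in UC, a log2 fold change of -0.86 (-1.29 to -0.43). For the genes from Postn to Spns3 the adjusted p in edgeR ran from 0.433 to 0.472, and DESeq2 called each of them.

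**Figure D2:**
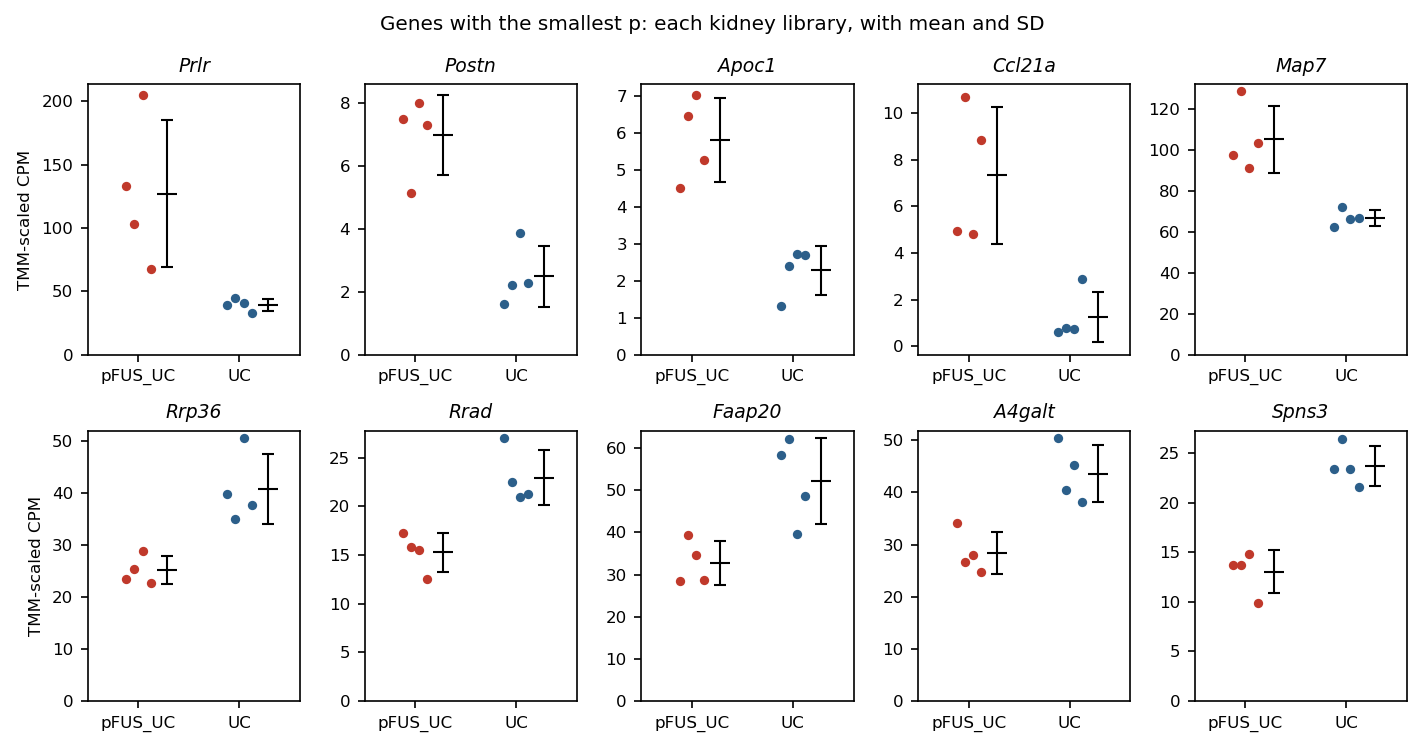
Level in each kidney library (points, TMM-scaled CPM on the y axis) of the 10 genes with the smallest p, with pFUS_UC in red and UC in blue, and the mean with SD beside each group of 4. In each of the 10 panels the groups do not overlap, and Prlr spans 67.5 to 205 CPM in pFUS_UC against 32.5 to 44.6 CPM in UC. The genes were picked by p in these same libraries, which favours separated groups, so the separation is not further evidence.

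No heat shock gene was called in this comparison. Of 45 listed heat shock proteins, co-chaperones and HSF factors, 43 were expressed enough to test, 1 was higher and 0 were lower at an unadjusted p under 0.05, and DESeq2 called 0. Their median log2 fold change was 0.03, beside 0.00209 over all tested genes, and for 39 of the 43 the interval stayed within a 2-fold change. Their summed level was 5230 to 6600 CPM in pFUS_UC and 5520 to 6160 CPM in UC. The member with the smallest p was Hspa12a, a distant relative of the HSP70 family, at 21.5, 20.7, 22.6 and 27.7 CPM in pFUS_UC, against 11.5, 16.9, 11.4 and 23.6 CPM in UC. The groups overlapped through UC kidney 4, and the log2 fold change was 0.54 (0.09 to 0.99).

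By length-adjusted level the constitutive chaperone Hspa8 was the highest of the list, at a mean of 326.5 FPKM in pFUS_UC and 309.9 FPKM in UC. The cytosolic chaperone Hsp90ab1 averaged 237.3 FPKM in pFUS_UC and 251.1 FPKM in UC, and the small heat shock protein Cryab averaged 160.5 FPKM in pFUS_UC and 160.9 FPKM in UC. Their log2 fold changes lay between -0.08 and 0.08. These 3 genes were picked for their level after the values were seen.

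The stress-inducible HSP70 genes Hspa1a and Hspa1b varied more within the groups than between them. Hspa1a had 19.1, 9.20, 4.75 and 8.07 CPM in pFUS_UC, against 4.11, 2.89, 65.6 and 8.32 CPM in UC. UC kidney 3 stood far above every other kidney. With it the log2 fold change was -0.99 (-2.64 to 0.67), and without it 0.999, so the direction rested on that kidney. Hspa1b had 91.1, 43.7, 29.2 and 60.4 CPM in pFUS_UC, against 26.5, 24.6, 130 and 49.7 CPM in UC, a log2 fold change of -0.04 (-1.04 to 0.95). Its sign also turned without UC kidney 3, to 0.74. The 2 genes are near-identical copies, so reads can be split between them. Hspb1, a small heat shock protein that binds actin and unfolded proteins, had 42.7, 37.3, 39.3 and 32.8 CPM in pFUS_UC, against 57.1, 28.2, 117 and 37.6 CPM in UC. The pFUS_UC kidneys lay close together inside the wider UC range, and the log2 fold change was -0.66 (-1.36 to 0.04), or -0.11 without UC kidney 3.

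Hspd1 and Hspe1 encode HSP60 and HSP10, the parts of the chaperonin that folds proteins inside mitochondria, and so bear on both themes of the title. They were chosen for their shared promoter after the values were seen. The genes lie head to head, and 138 bases of the stretch between their start sites (GRCm38.p6, chr1:55087999-55088136, plus strand, RefSeq) are shown because they hold a heat shock element. Capitals mark the letters that match GAANNTTCNNGAA, the 3-unit heat shock element, on either strand, here 2 overlapping matches over 18 bases.
Hspd1-Hspe1: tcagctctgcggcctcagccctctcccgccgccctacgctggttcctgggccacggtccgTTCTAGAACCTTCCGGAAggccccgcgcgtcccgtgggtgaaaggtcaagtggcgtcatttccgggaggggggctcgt
The same search in the 250 bases before the start sites found a match for 139 of 27025 RefSeq genes (0.514%) and for 3 of the 35 heat shock list genes that had a sequence (8.57%), namely Hspd1, Hspe1 and Dnajb6. With 215 bases between their start sites, Hspd1 and Hspe1 share the stretch shown, so it is counted for both genes. The stress-inducible Hspa1a and Hspa1b had no match to this strict pattern. A match describes letters and does not show that HSF1 binds.

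Hspd1 had 394, 296, 318 and 429 CPM in pFUS_UC, against 327, 327, 302 and 349 CPM in UC. Hspe1 had 166, 173, 194 and 232 CPM in pFUS_UC, against 174, 202, 159 and 146 CPM in UC. Both genes overlapped between the groups, and pFUS_UC kidney 4 was the highest of the 8 for each. The log2 fold changes were 0.14 (-0.14 to 0.41) for Hspd1 and 0.17 (-0.14 to 0.48) for Hspe1, with adjusted p of 0.814 and 0.788. The upper limits of both intervals stay under a 2-fold increase. The deposited gene boundaries of the pair overlap, and strand use in counting is not given in the sources at hand, so reads in the overlap cannot be assigned to either gene.

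Chaperones of the endoplasmic reticulum and the unfolded protein response had a median log2 fold change of -0.10 over 31 genes, 0 higher and 2 lower at an unadjusted p under 0.05. Xbp1, a transcription factor of that response, had 180, 158, 111 and 175 CPM in pFUS_UC, against 313, 155, 281 and 203 CPM in UC. Atf4, the factor that responds to amino acid and stress signals, stayed between 100.4 and 108.5 CPM in pFUS_UC, against 187, 105, 179 and 104 CPM in UC. For both genes UC kidneys 1 and 3 were the highest of the 8. The log2 fold changes were -0.61 (-1.05 to -0.17) for Xbp1 and -0.45 (-0.82 to -0.07) for Atf4.

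**Figure D3:**
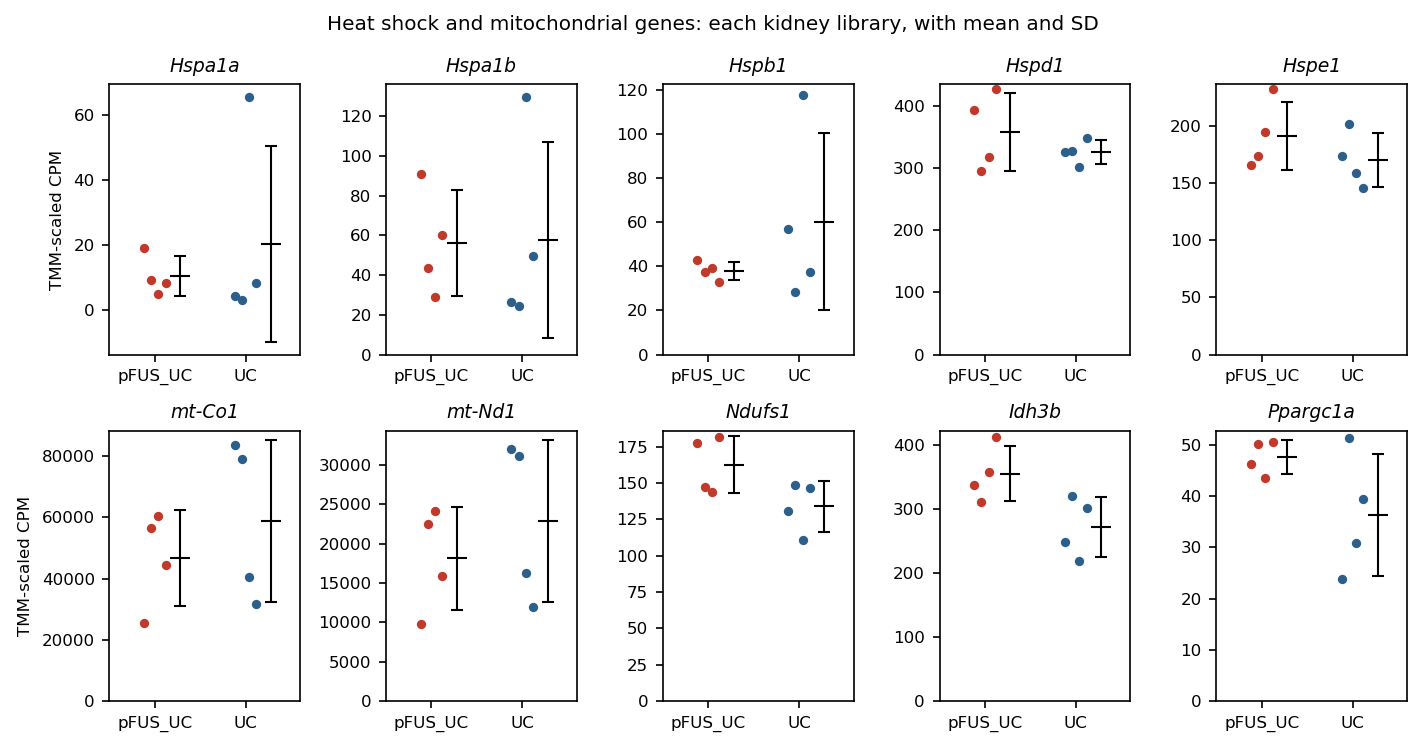
Level in each kidney library (points, TMM-scaled CPM on the y axis) of 5 heat shock genes and 5 mitochondrial genes, with pFUS_UC in red and UC in blue, and the mean with SD beside each group of 4. Hspa1a reached 65.6 CPM in UC kidney 3 alone, and the groups overlap in all 10 panels.

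The mitochondrial genome's 13 respiratory chain transcripts varied widely within each group. Their summed level was 65990, 149000, 161400 and 119600 CPM in pFUS_UC, against 208200, 206000, 100500 and 79270 CPM in UC. UC kidneys 1 and 2 were the highest and pFUS_UC kidney 1 the lowest of the 8. The median log2 fold change was -0.16, and 0 of the 13 reached an unadjusted p under 0.05 in either direction. That median ran from -0.39 to 0.05 when each library was left out in turn, and it was above 0 without pFUS_UC kidney 1, UC kidney 1 or UC kidney 2. The transcript mt-Co1, for a subunit of cytochrome oxidase, had 25625, 56399, 60323 and 44451 CPM in pFUS_UC, against 83733, 79133, 40555 and 31749 CPM in UC. Its log2 fold change was -0.33 with an interval of -1.19 to 0.52. For only 2 of the 13 transcripts did the interval stay within a 2-fold change, so these kidneys do not bound this group tightly.

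Nuclear genes of the respiratory chain were far less variable. For 36 subunits and assembly factors of complex I the median log2 fold change was 0.04, with 1 higher and 0 lower at an unadjusted p under 0.05, and 35 intervals stayed within a 2-fold change. For 40 genes of complexes II to V the median was 0.08, again with 1 higher and 0 lower, and all 40 intervals stayed within a 2-fold change. Both higher counts were 0 without pFUS_UC kidney 4, and without UC kidney 2 they became 3 (complex I) and 4 (the other complexes). Over all tested genes 3.98% were higher and 3.94% lower. Ndufs1, an iron-sulphur subunit of complex I, averaged 163 ± 19.7 CPM in pFUS_UC and 134 ± 17.5 CPM in UC (log2 fold change 0.28, 0.02 to 0.53). Atp5k, a subunit of ATP synthase, averaged 177 ± 34.8 CPM in pFUS_UC and 137 ± 18.6 CPM in UC (log2 fold change 0.37, 0.03 to 0.71). Both genes overlapped between the groups.

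All 20 genes of the tricarboxylic acid cycle and the enzymes that feed it had a fitted log2 fold change above 0, and each was small. Their median was 0.22, the largest was 0.43, and all 20 intervals stayed within a 2-fold change. At an unadjusted p under 0.05, 3 were higher and 0 lower, and DESeq2 called 0. Idh3b, a subunit of mitochondrial isocitrate dehydrogenase, had 339, 312, 359 and 413 CPM in pFUS_UC, against 249, 321, 219 and 302 CPM in UC. Only UC kidney 2 reached into the pFUS_UC range, and the log2 fold change was 0.38 (0.09 to 0.68). Dlat, of the pyruvate dehydrogenase complex, and Me3, mitochondrial malic enzyme, had log2 fold changes of 0.27 (0.03 to 0.51) and 0.43 (0.01 to 0.84). The summed level of the 20 genes was 6409, 5670, 6026 and 6911 CPM in pFUS_UC, against 5433, 5587, 4551 and 6011 CPM in UC. The groups overlapped through UC kidney 4, and the count of higher members was 0 without UC kidney 3 or pFUS_UC kidney 4, 1 without pFUS_UC kidney 1, 5 without pFUS_UC kidney 2, and 7 without UC kidney 4 or pFUS_UC kidney 3.

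Of 29 genes for mitochondrial biogenesis, dynamics and mitophagy, 2 were higher and 1 lower at an unadjusted p under 0.05, with a median log2 fold change of 0.05. The higher count was 1 without pFUS_UC kidney 1 or UC kidney 3 and 5 without UC kidney 4, and the lower count ran from 0 to 2, the 2 without UC kidney 4. Over all tested genes 3.98% were higher and 3.94% lower. Esrrg, a nuclear receptor that drives oxidative metabolism genes, averaged 35.3 ± 3.003 CPM in pFUS_UC and 27.0 ± 4.73 CPM in UC without overlap (log2 fold change 0.38, 0.07 to 0.69). Ppargc1a, the coactivator PGC-1alpha of mitochondrial biogenesis, had 46.3, 50.2, 43.6 and 50.6 CPM in pFUS_UC, against 23.7, 51.3, 30.8 and 39.5 CPM in UC. UC kidney 2 had the highest value of all 8, and the log2 fold change was 0.39 (-0.05 to 0.83, adjusted p = 0.665 by edgeR).

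Fatty acid oxidation genes had a median log2 fold change of -0.07 over 33 members, with 0 higher and 4 lower at an unadjusted p under 0.05. The 4 were targets of the lipid-sensing receptor PPARalpha. Cyp4a14, a fatty acid omega-hydroxylase, had 557, 537, 445 and 371 CPM in pFUS_UC, against 1281, 885, 740 and 626 CPM in UC, with no overlap and a log2 fold change of -0.89 (-1.69 to -0.08). Its relative Cyp4a10 averaged 484 ± 110 CPM in pFUS_UC and 785 ± 214 CPM in UC. Pdk4, which turns off pyruvate dehydrogenase, averaged 26.7 ± 11.2 CPM in pFUS_UC and 55.9 ± 39.6 CPM in UC. Fabp1, a fatty acid carrier, was low in both groups, at 0.443 to 1.41 CPM in pFUS_UC and 1.72 to 6.67 CPM in UC. UC kidney 1 was the highest of the 8 for each of these 4 genes. The count of 4 became 1 without UC kidney 1 or pFUS_UC kidney 4, and 2 without UC kidney 2 or pFUS_UC kidney 2.

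No marker of tubular injury and repair passed the test, and the groups overlapped in their summed level. Of 29 tested members, 27 had a fitted log2 fold change below 0, 9 were lower and 1 higher at an unadjusted p under 0.05, and the median was -0.50. EdgeR and DESeq2 called 0 of them. The sums were 5562, 3792, 3646 and 2578 CPM in pFUS_UC, against 10470, 4232, 8725 and 5306 CPM in UC. UC kidneys 1 and 3 had the highest sums and pFUS_UC kidney 4 the lowest. The single gene Spp1 was the largest part of every sum. It gave 3756, 2375, 2335 and 1420 CPM in pFUS_UC, against 8155, 2823, 6117 and 3745 CPM in UC. The count of lower members was 2 without UC kidney 1, 3 without UC kidney 3, 4 without pFUS_UC kidney 3 and 5 without pFUS_UC kidney 4. It rose to 13 without pFUS_UC kidney 1.

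Havcr1, the injury receptor KIM-1 of proximal tubule cells, had 34.5, 17.6, 73.5 and 1.92 CPM in pFUS_UC, against 147, 44.8, 214 and 96.9 CPM in UC. The log2 fold change was -1.97 with an interval of -3.61 to -0.33 and an adjusted p of 0.597 by edgeR. Lcn2, the iron-binding injury protein NGAL, had 38.4, 40.2, 32.2 and 7.73 CPM in pFUS_UC, against 79.5, 18.1, 208 and 47.1 CPM in UC. UC kidney 2 had less Lcn2 than 3 of the pFUS_UC kidneys, and the log2 fold change was -1.57 (-3.07 to -0.08). It was -0.70 without UC kidney 3, the highest, and -1.91 without UC kidney 2. Spp1, the secreted matrix protein osteopontin, had 3756, 2375, 2335 and 1420 CPM in pFUS_UC, against 8155, 2823, 6117 and 3745 CPM in UC (log2 fold change -1.08, -1.85 to -0.31). Krt20, a keratin of injured tubule, averaged 5.63 ± 4.01 CPM in pFUS_UC and 24.5 ± 21.3 CPM in UC (log2 fold change -2.11, -3.75 to -0.48).

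The p53 targets also summed highest in UC kidneys 1 and 3 and lowest in pFUS_UC kidney 4. Cdkn1a is also in the injury list, and both sums come from the same libraries, so these sums are not independent. Of 31 genes, 10 were lower and 0 higher at an unadjusted p under 0.05, the median log2 fold change was -0.54, and edgeR and DESeq2 called 0. Cdkn1a, the cell cycle inhibitor p21, had 74.1, 38.9, 45.6 and 5.86 CPM in pFUS_UC, against 168, 105, 166 and 62.0 CPM in UC. UC kidney 4 lay below pFUS_UC kidney 1, and the log2 fold change was -1.60 (-2.94 to -0.26, adjusted p = 0.598 by edgeR). Bax, which permeabilises the mitochondrial outer membrane, averaged 79.8 ± 24.8 CPM in pFUS_UC and 125 ± 18.5 CPM in UC. Mdm2, the ubiquitin ligase that limits p53, averaged 52.0 ± 14.2 CPM in pFUS_UC and 91.2 ± 24.4 CPM in UC. Their log2 fold changes were -0.65 (-1.09 to -0.21) and -0.81 (-1.44 to -0.18). The count of 10 became 2 without UC kidney 1, 4 without UC kidney 3, 6 without pFUS_UC kidney 2 and 5 without pFUS_UC kidney 4. It rose to 14 without pFUS_UC kidney 1.

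Immediate early genes and NF-kappaB targets also had medians below 0. Of 29 immediate early genes 8 were lower and 0 higher at an unadjusted p under 0.05, with a median log2 fold change of -0.43. Of 24 inflammatory cytokines and NF-kappaB targets 7 were lower and 0 higher, with a median of -0.50. Klf6, a zinc finger factor induced by injury, had 38.1, 37.8, 31.1 and 27.7 CPM in pFUS_UC, against 112, 39.2, 73.5 and 40.8 CPM in UC. The groups did not overlap, though UC kidneys 2 and 4 lay close to the pFUS_UC kidneys. Cxcl1, a chemokine that draws neutrophils, had 9.30, 18.7, 8.39 and 0.443 CPM in pFUS_UC, against 189, 18.6, 44.6 and 12.2 CPM in UC. UC kidney 1 held most of the difference, and the log2 fold change was -2.85 over all kidneys (-4.81 to -0.89) and -1.46 without UC kidney 1. Atf3, a stress-induced factor, averaged 5.24 ± 2.85 CPM in pFUS_UC and 17.7 ± 14.01 CPM in UC, and the adhesion molecule Icam1 averaged 17.2 ± 4.63 CPM in pFUS_UC and 29.2 ± 12.7 CPM in UC. Without UC kidney 1 the counts of lower members became 3 immediate early genes and 1 NF-kappaB target, and without pFUS_UC kidney 4 they became 5 and 3. The immediate early count was also 14 without pFUS_UC kidney 1, and 5 without pFUS_UC kidney 2 or 3. The NF-kappaB count rose to 9 without UC kidney 2.

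Of 32 antioxidant genes and targets of NRF2, the factor that answers oxidative stress, 7 were lower and 1 higher at an unadjusted p under 0.05, with a median log2 fold change of -0.15. Srxn1, which repairs oxidised peroxiredoxins, had 60.02, 44.5, 53.02 and 48.1 CPM in pFUS_UC, against 92.3, 71.0, 95.6 and 67.1 CPM in UC. Gclc, the rate-limiting enzyme of glutathione synthesis, had 269, 174, 223 and 212 CPM in pFUS_UC, against 420, 333, 334 and 291 CPM in UC. Neither gene overlapped between the groups, and the log2 fold changes were -0.66 (-1.01 to -0.31) and -0.65 (-1.04 to -0.26), with adjusted p of 0.501 and 0.580 by edgeR. Hmox1, haem oxygenase 1, averaged 16.0 ± 4.62 CPM in pFUS_UC and 32.1 ± 14.4 CPM in UC, with overlap. The count of 7 became 4 without UC kidney 1 or pFUS_UC kidney 4, and rose to 9 without UC kidney 4.

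**Figure D4:**
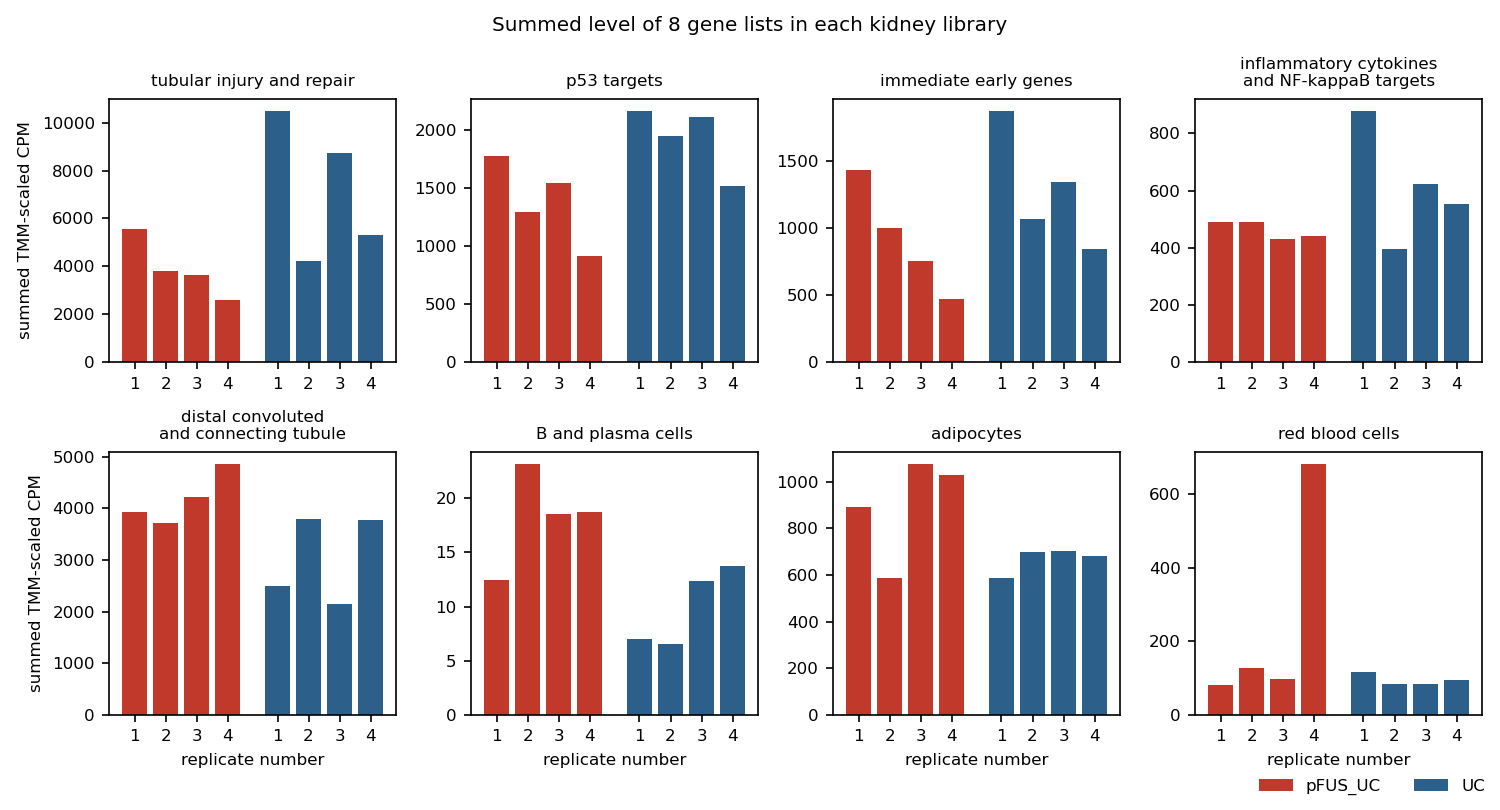
Summed TMM-scaled CPM (y axis) of 8 gene lists in each kidney library (bars, labelled by replicate number), with the 4 pFUS_UC libraries in red and the 4 UC libraries in blue. In tubular injury and immediate early genes the UC bars 1 and 3 are the highest UC bars and pFUS_UC bar 4 is the lowest of the 8, and the red blood cell sum reaches 682 CPM in pFUS_UC 4 alone.

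EdgeR called no marker of the tubule segments, and no test compared one segment with another. Bulk tissue cannot tell fewer cells of a type from less RNA per cell, here or in the groups that follow. Distal convoluted and connecting tubule markers had 6 of 15 higher and 0 lower at an unadjusted p under 0.05, with a median log2 fold change of 0.42. The higher count was 3 without pFUS_UC kidney 4 and 8 without UC kidney 2. Slc12a3, the thiazide-sensitive sodium chloride cotransporter, had 726, 782, 1046 and 771 CPM in pFUS_UC, against 332, 648, 174 and 531 CPM in UC. The groups did not overlap, and the lowest UC values were again in kidneys 1 and 3, the kidneys with the highest injury sums, and the part of those sums in the distal tubule values was not tested. The log2 fold change was 0.98 (0.25 to 1.71, adjusted p = 0.597 by edgeR). Pvalb, the calcium-binding parvalbumin of early distal tubule, had 125, 76.6, 107 and 145 CPM in pFUS_UC, against 20.2, 62.8, 13.1 and 78.1 CPM in UC (log2 fold change 1.38, 0.33 to 2.44). The kinase Wnk1, which regulates Slc12a3, averaged 216 ± 11.2 CPM in pFUS_UC and 157 ± 37.7 CPM in UC without overlap (log2 fold change 0.46, 0.13 to 0.79).

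Of 15 thick ascending limb markers 3 were higher and 0 lower, with a median of 0.27. Egf, the growth factor made by that segment, had 843, 419, 526 and 687 CPM in pFUS_UC, against 228, 452, 282 and 620 CPM in UC, and the calcium-sensing receptor Casr had 17.7, 12.2, 12.3 and 14.5 CPM in pFUS_UC, against 5.98, 6.57, 8.23 and 13.7 CPM in UC. Both overlapped between the groups, with log2 fold changes of 0.65 (0.03 to 1.26) and 0.72 (0.15 to 1.29). The count was 0 without UC kidney 1 or pFUS_UC kidney 1, 1 without UC kidney 2 or pFUS_UC kidney 4, and 8 without UC kidney 4. Of 38 proximal tubule markers 5 were higher and 2 lower, with a median of 0.15. The higher count was 2 without UC kidney 1 or 3, 3 without pFUS_UC kidney 1 or 4 and 8 without UC kidney 2, and the lower count was 0 without pFUS_UC kidney 1 or 2. Cyp4b1, a cytochrome P450 of that segment, averaged 567 ± 83.1 CPM in pFUS_UC and 389 ± 28.3 CPM in UC without overlap (log2 fold change 0.54, 0.18 to 0.91). None of the 14 principal cell markers tested reached an unadjusted p under 0.05 in edgeR, and DESeq2 called 0. Aqp2, the vasopressin-regulated water channel, had 1005, 1515, 868 and 1110 CPM in pFUS_UC, against 1658, 604, 2505 and 1232 CPM in UC (log2 fold change -0.42, -1.13 to 0.30).

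Vessel, glomerulus and matrix lists had medians above 0. Of 20 endothelial markers 3 were higher and 0 lower, with a median log2 fold change of 0.38, and of 12 podocyte markers 2 were higher and 0 lower, also with a median of 0.38. Kdr, the VEGF receptor of endothelium, had 15.8, 17.2, 10.6 and 16.6 CPM in pFUS_UC, against 5.61, 7.86, 7.04 and 13.3 CPM in UC (log2 fold change 0.83, 0.28 to 1.37). UC kidney 4 lay inside the pFUS_UC range, and 11 endothelial markers reached an unadjusted p under 0.05 without it, against 1 without UC kidney 1, UC kidney 2, pFUS_UC kidney 2 or pFUS_UC kidney 4. The podocyte count ran from 0 to 5 when each library was left out in turn.

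Of 33 matrix and fibroblast genes 7 were higher and 0 lower at an unadjusted p under 0.05, with a median log2 fold change of 0.35, and 5 did not overlap between the groups. DESeq2 called 1 of the 33, Postn. Over all tested genes 3.98% were higher and 3.94% lower at an unadjusted p under 0.05, and 1.93% lay wholly above UC. Dcn, the collagen-binding proteoglycan decorin, had 22.5, 30.6, 19.9 and 18.7 CPM in pFUS_UC, against 15.6, 9.15, 10.6 and 17.9 CPM in UC (log2 fold change 0.78, 0.25 to 1.31). Thy1, a surface marker of fibroblasts and of some mesenchymal cells, had 3.37, 2.92, 4.96 and 2.61 CPM in pFUS_UC, against 0.561, 1.11, 1.59 and 1.73 CPM in UC (log2 fold change 1.46, 0.66 to 2.25). Lum, another matrix proteoglycan, ran from 1.77 to 2.44 CPM in pFUS_UC and from 0.264 to 1.59 CPM in UC. In each of these 3 genes the lowest pFUS_UC kidney lay above the highest UC kidney. The count of 7 became 4 without UC kidney 2 or pFUS_UC kidney 4, and 17 without UC kidney 4.

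Of 32 growth factors and receptors 4 were higher and 3 lower. Igfbp3, which carries insulin-like growth factors, had 60.4, 84.7, 68.0 and 71.7 CPM in pFUS_UC, against 34.3, 37.2, 32.7 and 54.0 CPM in UC (log2 fold change 0.85, 0.34 to 1.35). Pdgfa, a growth factor for mesenchymal cells, had 28.4, 25.5, 24.2 and 21.3 CPM in pFUS_UC, against 49.5, 28.5, 39.5 and 33.4 CPM in UC (log2 fold change -0.60, -0.97 to -0.23). Neither overlapped between the groups, and the values of UC kidney 4 for Igfbp3 and UC kidney 2 for Pdgfa came closest to pFUS_UC. Pdgfb, its relative, averaged 28.5 ± 4.94 CPM in pFUS_UC and 47.5 ± 24.5 CPM in UC with overlap. The higher count was 2 without UC kidney 1 or 3, 1 without pFUS_UC kidney 4 and 8 without UC kidney 4, and the lower count was 1 without UC kidney 1.

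The macrophage and antibody genes named here were at a few CPM. Of 18 macrophage markers 4 were higher and 1 lower at an unadjusted p under 0.05, with a median log2 fold change of 0.68. The higher count was 11 without UC kidney 4 and 3 without pFUS_UC kidney 4. Mrc1, the mannose receptor, had 3.11, 3.14, 2.74 and 2.66 CPM in pFUS_UC, against 0.934, 0.368, 1.06 and 2.12 CPM in UC (log2 fold change 1.35, 0.54 to 2.17). Mpeg1, a pore-forming protein of macrophages, averaged 6.83 ± 1.61 CPM in pFUS_UC and 3.32 ± 1.72 CPM in UC, and UC kidney 4 lay inside the pFUS_UC range. The summed macrophage level was 499 to 1070 CPM in pFUS_UC and 413 to 925 CPM in UC, and this sum overlapped. Its mean was 715 ± 247 CPM in pFUS_UC and 690 ± 229 CPM in UC. Igkc and Igha gave larger ratios than Mrc1, at a few CPM. Igkc, the kappa light chain constant region, had 2.72, 5.24, 3.72 and 4.09 CPM in pFUS_UC, against 0.748, 0.983, 0.528 and 1.88 CPM in UC, and Igha, the constant region of IgA, had 1.99, 5.29, 3.21 and 2.66 CPM in pFUS_UC, against 0.125, 0.430, 0.308 and 1.20 CPM in UC. Neither overlapped between the groups, the log2 fold changes were 1.92 (1.13 to 2.70) and 2.62 (1.27 to 3.96), and DESeq2 called both (adjusted p 0.000784 and 0.00583) while edgeR did not (0.433 and 0.474). Igkc and Igha are 2 of 7 tested B and plasma cell genes, of which 3 were higher and 0 lower at an unadjusted p under 0.05. The fitted log2 fold change was above 0 for 5 and below 0 for 2 of the 7, with a median of 0.66. The third gene among the higher ones was Ighm, the constant region of IgM, whose log2 fold change was 1.08 (0.10 to 2.06) and whose values overlapped. AKI kidneys held 3.56 to 6.28 CPM of Igkc, above the UC kidneys too.

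Genes of fat tissue had the largest median of the lists after red blood cells. Of 14 adipocyte genes 9 were higher and 0 lower at an unadjusted p under 0.05, all 14 had a fitted log2 fold change above 0, and the median was 1.97. Leaving out 1 library at a time gave 8 to 11. Adipoq, the fat hormone adiponectin, had 7.61, 1.71, 9.501 and 3.89 CPM in pFUS_UC, against 0.249, 0.184, 1.63 and 0.866 CPM in UC. Plin1, the coat protein of fat droplets, had 7.27, 1.05, 6.03 and 4.87 CPM in pFUS_UC, against 0.810, 0.184, 0.925 and 0.866 CPM in UC. Neither overlapped between the groups, and pFUS_UC kidney 2 was the lowest pFUS_UC kidney for both. Ucp1, the uncoupling protein of brown fat, had 6.01, 0.937, 1.88 and 4.04 CPM in pFUS_UC, against 0.498, 0, 0.484 and 0.192 CPM in UC. Fabp4, the fatty acid carrier of fat cells and some endothelium, had 70.7, 49.7, 83.0 and 87.4 CPM in pFUS_UC, against 14.6, 8.35, 36.9 and 33.8 CPM in UC. The log2 fold changes were 2.89 (1.46 to 4.31) for Adipoq, 2.76 (1.46 to 4.06) for Plin1, 3.41 (1.501 to 5.31) for Ucp1 and 1.63 (0.84 to 2.42) for Fabp4. Their adjusted p was 0.472 to 0.540 by edgeR and 0.00155 to 0.0207 by DESeq2, which called these 4 of the 14. AKI kidneys held 1.87 to 7.58 CPM of Adipoq, also above every UC kidney. The summed adipocyte level was 589 to 1070 CPM in pFUS_UC and 587 to 704 CPM in UC. The part of these adipocyte genes in the values of Postn, Ccl21a, antibody and matrix genes was not tested.

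Globin transcripts stood apart in 1 kidney of each group, pFUS_UC kidney 4 and UC kidney 1. Hbb-bs, an adult beta globin, had 0.432, 0.606, 1.16 and 183 CPM in pFUS_UC, against 10.7, 1.11, 0.220 and 0.0962 CPM in UC. Hbb-bt, its near-identical neighbour, had 0.519, 0.0551, 0.0856 and 30.9 CPM in pFUS_UC, against 1.06, 0.123, 0.0440 and 0 CPM in UC. The fitted log2 fold changes of 3.99 and 4.78 rest on pFUS_UC kidney 4 and were -2.0 and -0.33 without it. The summed red blood cell level was 81.2 to 682 CPM in pFUS_UC and 82.9 to 118 CPM in UC, and the median log2 fold change of the 6 tested members was 2.28 with that kidney and -0.33 without it. Slc4a1, the chloride-bicarbonate exchanger of red cells, is also made by intercalated cells. It averaged 61.4 ± 21.0 CPM in pFUS_UC and 33.1 ± 10.2 CPM in UC, and its values overlapped.

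Among 19 circadian clock genes 3 were higher and 0 lower, with a median log2 fold change of 0.07. Without pFUS_UC kidney 1 the counts became 5 higher and 3 lower, and leaving out any other library gave 2 to 4 higher and 0 lower. Dbp, a clock output factor with a strong daily rhythm, had 77.0, 202, 197 and 156 CPM in pFUS_UC, against 56.0, 63.1, 49.2 and 114 CPM in UC. Nr1d1, the clock repressor REV-ERBalpha, had 24.95, 50.4, 37.8 and 38.7 CPM in pFUS_UC, against 11.3, 14.4, 20.1 and 32.1 CPM in UC. In both genes pFUS_UC kidney 1 was the lowest pFUS_UC kidney and UC kidney 4 the highest UC kidney, and the groups overlapped. The log2 fold changes were 1.16 (0.51 to 1.81) for Dbp and 0.96 (0.19 to 1.72) for Nr1d1. DESeq2 called Dbp (adjusted p = 0.0453) and edgeR did not (0.540). The hour of sampling is not given in the sources at hand.

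Cytosolic ribosomal protein genes were lower in the fit for 50 of 56 members, with a median log2 fold change of -0.20 and 8 lower and 0 higher at an unadjusted p under 0.05. Rps7, a small subunit protein, had 255, 277, 264 and 271 CPM in pFUS_UC, against 348, 330, 340 and 313 CPM in UC, without overlap (log2 fold change -0.32, -0.58 to -0.06). These genes have many processed copies in the genome, so counts can be split. Their summed share of the counts was 2.51 ± 0.189% in pFUS_UC and 2.79 ± 0.254% in UC (2-sided exact permutation test, n = 4 each, p = 0.114, adjusted 0.229). The count of 8 became 2 without UC kidney 1 or pFUS_UC kidney 1, 5 without UC kidney 3, 4 without pFUS_UC kidney 4, 14 without pFUS_UC kidney 2 and 15 without UC kidney 4.

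**Figure D5:**
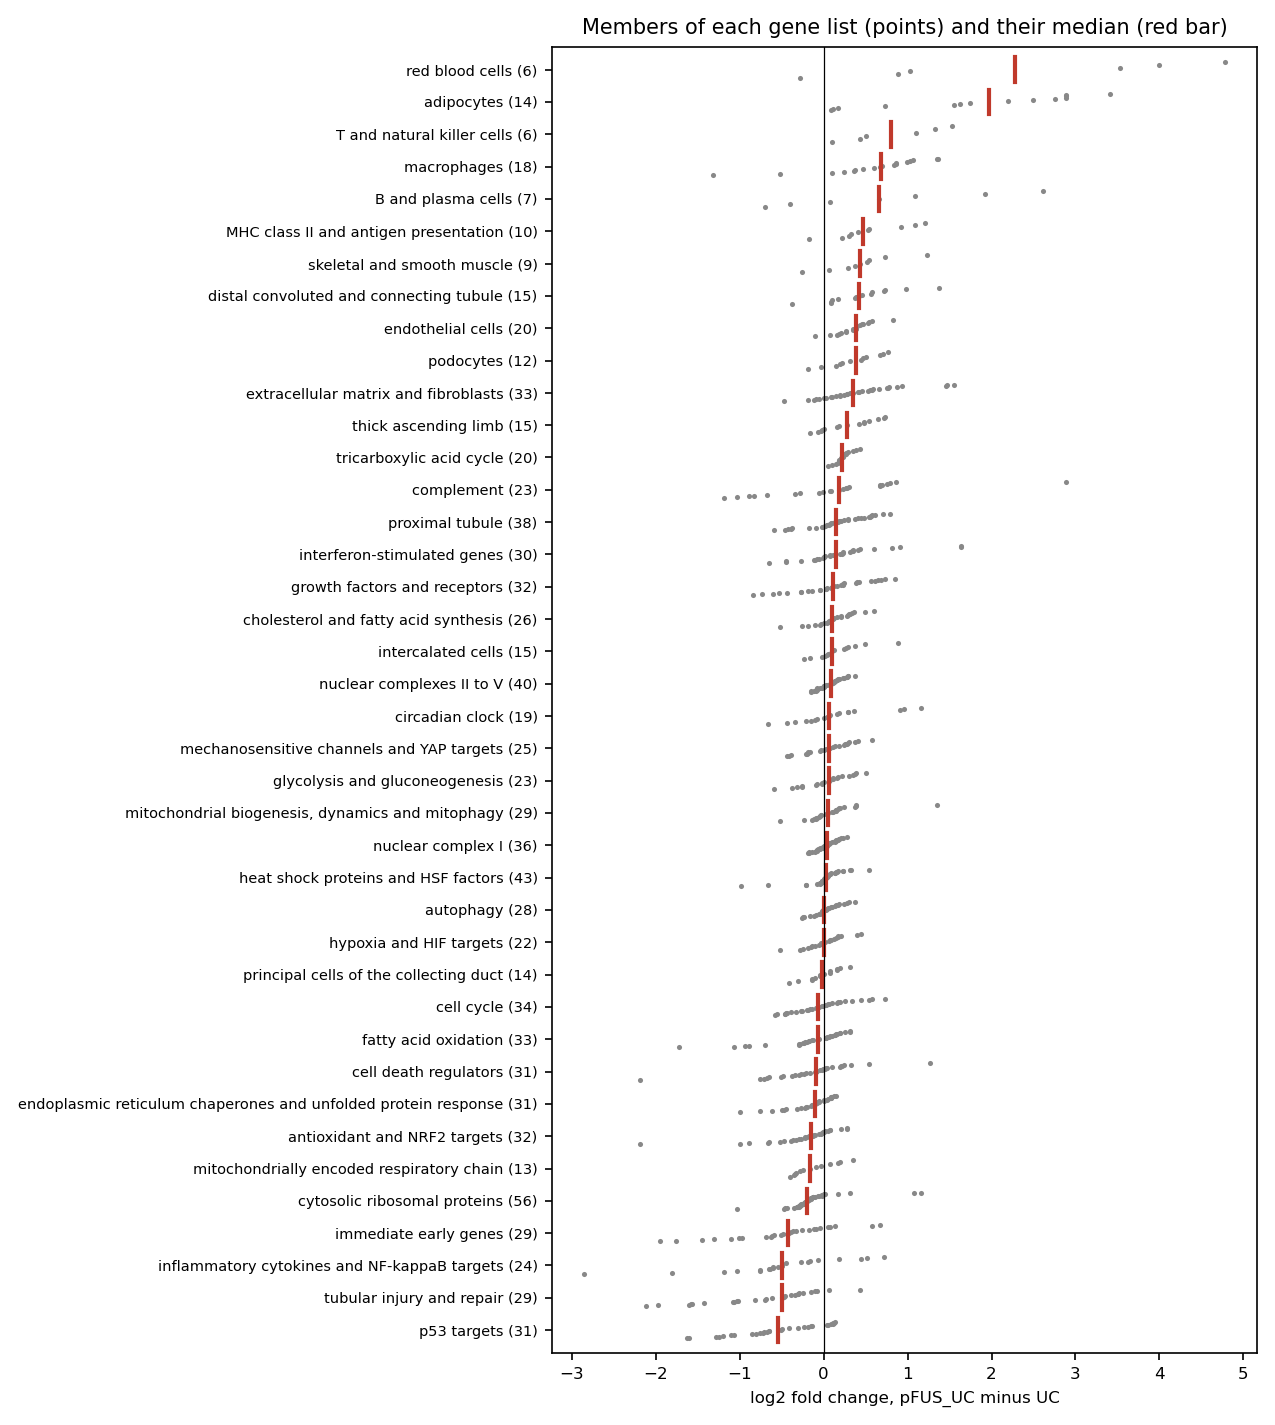
Fitted log2 fold change of pFUS_UC minus UC (x axis) for each tested member (grey points) of the gene lists (y axis, number tested in brackets), with the list median as a red bar and lists ordered by median. The medians run from -0.54 for p53 targets to 2.28 for red blood cells (-0.33 without pFUS_UC kidney 4), and heat shock and nuclear respiratory chain lists sit near 0.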

How the data were processed

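Bulk kidney RNA-seq from 12 libraries was used. The authors deposited raw counts per gene and, for those genes, FPKM values in another deposited table. Per the submitters' processing notes the authors used HTSeq, DESeq2 and the build GRCm39 (mm39), without version numbers. Aligner and strand setting: not given in the sources used here.

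Groups follow the labels. Counts of all 12 samples were fitted with edgeR 4.0.16 in R 4.3.3 (filterByExpr with minimum count 10 and minimum total 15, TMM, quasi-likelihood F-test, 9 residual degrees of freedom), with Benjamini-Hochberg adjustment over 16947 genes and a threshold of 0.05. SE is the absolute log2 fold change over the square root of F, and the 95% interval uses the test's degrees of freedom, 10.5 to 13.5. A gene at 0 counts could still lie at 0.119 to 0.173 CPM (3 counts; counting error only).

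The groups compared, the gene lists and the named genes were chosen with earlier results of these data known. Named genes are the 5 protein-coding genes per direction with the smallest p and at least 5 CPM in the higher group, list members among the 4 with the smallest p, and a fixed set (Havcr1, Lcn2, Cdkn1a, Hspa1a, Hspa1b, Ppargc1a, Rn18s-rs5). Some genes that this rule would name are not reported here. Shares of counts were compared by 2-sided exact permutation tests. Alternatives tried were DESeq2 1.42.0, DESeq2 size factors within edgeR, other filters, a fit of both groups alone, a replicate block, limma 3.58.1 on log2(FPKM + 1), and each replicate left out. Promoter sequences are RefSeq's on GRCm38.p6.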

Additional observations from a re-analysis of the deposited data

Results flagged for a closer look

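In 274 groups of 4 values (named genes in CPM, shares of counts and other library measures, and summed lists), 13 held a library that stood far from the other 3. The cut used flags about 1 in 20 groups when values are independent and normally distributed. These groups share libraries and genes, such as Hbb-bs, Hbb-bt and the red blood cell sum. The number of flags therefore cannot show whether any of them arose by chance. In pFUS_UC, replicate 4 stood apart with 183 CPM of Hbb-bs, 30.9 CPM of Hbb-bt and a summed red blood cell level of 682 CPM. In pFUS_UC, replicate 1 stood apart with 1.77 CPM of Lum, 4.24 CPM of Ighm and a summed level of mechanosensitive channels and YAP targets of 1229 CPM.

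In UC, replicate 1 stood apart with 10.7 CPM of Hbb-bs and 1.06 CPM of Hbb-bt. Replicate 2 of UC stood apart with 0.184 CPM of Plin1 and a summed level of MHC class II and antigen presentation genes of 97.6 CPM, where the others held 227 to 253 CPM. Replicate 3 of UC stood apart with 65.6 CPM of Hspa1a, where the others held 2.89 to 8.32 CPM. Replicate 4 of UC stood apart with 2.89 CPM of Ccl21a and a summed level of T and natural killer cell genes of 17.5 CPM, where the others held 3.50 to 4.18 CPM.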

How the results depend on the processing

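DESeq2 called 29 genes higher and 15 lower in pFUS_UC, and edgeR with no filter called 11 higher and 2 lower, where the reported fit called 0. No filter also gave 1112 higher genes at an unadjusted p under 0.05, where the reported fit gave 675. DESeq2 size factors in edgeR, a filter at 1 CPM in 4 samples, both groups fitted alone, and limma on log2(FPKM + 1) called 0. Leaving out each replicate in turn gave 0 to 1 higher calls, the 1 being Prlr without pFUS_UC replicate 4, and 0 lower calls. At an unadjusted p under 0.05 it gave 407 (without pFUS_UC replicate 4) to 1299 (without UC replicate 4) higher and 342 (without UC replicate 1) to 921 (without UC replicate 4) lower genes. Signs turned for Hspa1a (log2 fold change -1.48 to 0.999 when replicates were left out, positive without UC replicate 3). They turned for Hspa1b with limma (0.16) and when replicates were left out (-0.38 to 0.74, positive without pFUS_UC replicate 2 or 3 or UC replicate 3). Without pFUS_UC replicate 4 they turned for Hbb-bs (range -2.0 to 6.72) and Hbb-bt (-0.33 to 7.12). Medians turned for the mitochondrially encoded, nuclear complex I, heat shock, mitochondrial biogenesis, fatty acid oxidation, circadian clock, cell cycle, complement, hypoxia, mechanosensitive, neutrophil, principal cell and red blood cell lists. Among genes named above, fold changes moved by over 1.5 times from the fit of all libraries without losing their sign for Lcn2 and Cxcl1. The same held for Havcr1 (-2.80 to -1.58), Krt20 (-2.74 to -1.52), Atf3 (-2.03 to -1.16), Pdk4 (-1.37 to -0.45), Adipoq (2.52 to 3.63), Igha (2.30 to 3.47), Ighm (0.86 to 1.7), Lum (1.25 to 2.25) and Ccl21a (2.27 to 3.33). This measure compares the fold changes themselves, so smaller changes could move by more in proportion on the log2 scale. Examples are Hspb1 (-0.90 to -0.11) and Aqp2 (-0.68 to -0.05). The cause of these changes was not tested. List counts at an unadjusted p often moved by over 1.5 times when 1 library was left out, so they describe these 8 libraries.

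The labels do not say whether the replicate numbers pair the kidneys. Deviations from the group means of same-numbered samples correlated at -0.04, 0.00, -0.17 and 0.15. Differently numbered samples ranged from -0.256 to 0.278, so these correlations cannot decide whether the kidneys are paired. With a replicate block edgeR called 2 genes higher, Cfd and Plin1 (adjusted p 0.0499 each), and 0 lower, and the log2 fold change of Hspa1b became 0.16.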
